A study of Mus musculus with 7 samples.

Results

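The CC chemokine ligands described here were 10 genes, Ccl2, Ccl3, Ccl4, Ccl5, Ccl6, Ccl7, Ccl8, Ccl9, Ccl12 and Ccl17, taken by symbol from a count table of 26130 genes in sorted mouse lung myeloid cells. All 10 were in the table, and 9 had enough counts to be tested. CC chemokines are small secreted proteins, named for a pair of adjacent cysteines, that bind G protein-coupled receptors of the CCR family and draw leukocytes along their gradients. Monocytes and macrophages both make them and follow them: Ccr2 and its ligands bring monocytes out of the bone marrow and into tissue, while Ccr1 answers to a different set, some of which also attract T cells and NK cells. Lipopolysaccharide (LPS), a component of the bacterial outer membrane, induces several of these genes in myeloid cells through NF-kappaB and interferon regulatory factors.

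The cells came from digested lungs of Fth1-mScarlet x Lyz2GFP mice, which carry a red reporter of the ferritin heavy chain gene Fth1 and a green reporter of the lysozyme gene Lyz2. Every group was sorted as GFP-positive, CD11b-positive, Ly6C-positive and Ly6G-negative, which takes in monocytes and cells newly derived from them. The untreated Fth1-low group (2 libraries) came from mice with no treatment. The LPS Fth1-low (2 libraries) and LPS Fth1-high (3 libraries) groups came from mice given 20 µg of E. coli 0111:B4 LPS in 50 µl into the trachea, with the lungs taken 3 days later. Fth1-high cells of untreated mice were not analysed here, so treatment and gate cannot be told apart when LPS Fth1-high cells are set against untreated ones. Whether the libraries of a group were separate mice is not stated, and p-values then measure library-to-library spread alone, which may be technical.

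Libraries held 637787 to 27997007 counts. LPS Fth1-low replicate 1 stood apart. It had the 637787 counts, 19.4% of them ribosomal RNA (0.704% to 8.42% elsewhere), and 1 count there equals 1.67 CPM (counts scaled to library size). Its correlation with its partner was 0.863 (log2 CPM across genes, which are not independent replicates), against 0.960 to 0.980 within the other groups. For the genes of the sort, Lyz2 was 6140 to 12500 CPM and Itgam, which encodes CD11b, 750 to 2109 CPM in the 7 libraries. Ly6g had at most 2 counts. The Ly6C gene Ly6c2 was 562 to 765 CPM in untreated, 847 to 1393 in LPS Fth1-low and 1854 to 2980 in LPS Fth1-high libraries. Ly6c1 was 39.25 to 44.7, 53.0 to 127 and 114.6 to 261.5 CPM in the same order. Fth1, the gene of the gate, was 1672 to 1786, 2970 to 4825 and 13230 to 21000 CPM, so its level differed between the 2 Fth1-low groups too. Markers of other cell types were also found and are given below. Values below are CPM on library sizes scaled by the trimmed mean of M values (TMM). Differences are log2 ± SE from edgeR's quasi-likelihood test with Benjamini-Hochberg adjustment over 13665 genes, called at an adjusted p below 0.05.

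On chromosome 11 (mm10, GENCODE vM21) 9 of the ligand genes lie in 2 groups. Ccl2 (82035571 to 82037453), Ccl7 (82045712 to 82047525), Ccl12 (82101845 to 82103400) and Ccl8 (82115185 to 82116799) follow each other on the plus strand within 81229 bp. After a gap of 1408978 bp come Ccl5 (83525778 to 83530518), Ccl9 (83572919 to 83578636), Ccl6 (83587882 to 83593087) and Ccl3 (83647844 to 83649355) on the minus strand and Ccl4 (83662584 to 83664683) on the plus strand, within 138906 bp. Ccl17 is on chromosome 8 (94810453 to 94812036, plus strand). All are protein-coding.

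RefSeq promoter windows of GRCm38.p6 (250 bases before and 50 after the start site) were found for 6 of the 10 genes: Ccl3, Ccl6, Ccl8, Ccl9, Ccl12 and Ccl17. Ccl2, Ccl4, Ccl5 and Ccl7 had no entry. Ccl6 and Ccl9 are shown first because they were the ligands lowest in LPS Fth1-high cells relative to untreated cells, and neighbours on the minus strand. Capitals mark runs of at least 10 bases that the window shares with the other.
Ccl6, chr11:83593038-83593337, minus strand: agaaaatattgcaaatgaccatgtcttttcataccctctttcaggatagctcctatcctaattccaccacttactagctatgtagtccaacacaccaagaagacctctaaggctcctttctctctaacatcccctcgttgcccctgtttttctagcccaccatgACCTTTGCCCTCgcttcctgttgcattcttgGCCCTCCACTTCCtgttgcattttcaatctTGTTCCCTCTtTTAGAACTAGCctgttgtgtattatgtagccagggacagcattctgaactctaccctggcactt
Ccl9, chr11:83578587-83578886, minus strand: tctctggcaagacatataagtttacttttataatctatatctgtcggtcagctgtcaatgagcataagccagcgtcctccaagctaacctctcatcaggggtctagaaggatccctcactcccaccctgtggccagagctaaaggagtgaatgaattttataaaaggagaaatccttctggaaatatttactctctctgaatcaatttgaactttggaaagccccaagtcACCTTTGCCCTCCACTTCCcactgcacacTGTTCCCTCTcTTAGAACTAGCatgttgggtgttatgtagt
The shared runs covered 46 bases of the Ccl6 window and 40 of the Ccl9 window. The longest run common to both was 13 bases, and for the other pairs among the 15 pairs of the 6 windows the longest run was 7 to 11 bases.

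Ccl12 and Ccl8 are shown because they are neighbours whose transcripts had at most 2 counts in each untreated library. Capitals mark TATAAAA on the printed strand.
Ccl12, chr11:82101595-82101894, plus strand: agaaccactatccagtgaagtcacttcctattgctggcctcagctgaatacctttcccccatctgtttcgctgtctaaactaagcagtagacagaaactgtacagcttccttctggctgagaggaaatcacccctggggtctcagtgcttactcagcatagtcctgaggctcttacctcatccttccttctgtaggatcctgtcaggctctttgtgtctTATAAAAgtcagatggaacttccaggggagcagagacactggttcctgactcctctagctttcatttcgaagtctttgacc
Ccl8, chr11:82114935-82115234, plus strand: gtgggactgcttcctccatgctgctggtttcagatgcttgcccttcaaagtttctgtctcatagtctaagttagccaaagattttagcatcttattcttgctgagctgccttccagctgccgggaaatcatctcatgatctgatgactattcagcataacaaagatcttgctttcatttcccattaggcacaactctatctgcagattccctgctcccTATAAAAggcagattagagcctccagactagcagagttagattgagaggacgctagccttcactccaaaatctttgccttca
The match began at -31 in Ccl12 and at -32 in Ccl8, counted from the start site, and TATAAAA was in 5.5% of all 32851 windows on either strand. Ccl9 also matched TATAAAA on its own strand at -92, and on the opposite strand at -95, where the matches overlap, and at -225. The other motifs searched on both strands were the kappaB pattern, GGGA and CC with 4 bases of any kind between them (20.7% of all windows), the ISRE core, GAAA and GAAA with 2 bases of any kind between them (3.4%), the AP-1 pattern TGANTCA (7.8%) and the PU.1 core GAGGAA (28.3%). No kappaB or ISRE letters were in these 6 windows, and PU.1 letters were in Ccl3, Ccl8, Ccl12 and Ccl17. The AP-1 pattern as searched, with N for any base, matched Ccl9 at -53 as TGAATCA. These are letter matches in 300 bases, not binding sites.

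The make-up of the ligand transcripts was different in each group. Of all counts on the 10 genes, Ccl6 and Ccl9 together took 94.5% and 93.6% in the untreated libraries, 54.0% and 55.5% in LPS Fth1-low, and 9.06%, 8.74% and 23.3% in LPS Fth1-high. Ccl5 went the other way, with 0.740% and 0.388%, then 19.9% and 17.2%, then 64.0%, 71.4% and 55.1%. For both shares the groups did not overlap, and the 95% Wilson intervals were widest in the shallow LPS Fth1-low replicate 1, at 50.9% to 57.1% for Ccl6 with Ccl9 and 17.6% to 22.5% for Ccl5. These intervals cover counting error only. Counts favour genes with more exon sequence, and Ccl9 (3045 bp) and Ccl6 (1795 bp) had the most of the 10. Per exon length Ccl6 with Ccl9 made up 87.2% and 84.7% in untreated and 32.6% and 31.6% in LPS Fth1-low libraries. In LPS Fth1-high libraries they made up 4.18%, 3.56% and 11.1%. Ccl5 per exon length made up 1.52% and 0.790%, then 26.5% and 22.8%, then 64.3%, 72.0% and 60.6%. The summed level of the 10 ligands overlapped between groups, at 2049 and 1514 CPM in untreated, 1664 and 1819 in LPS Fth1-low and 1269, 2302 and 2007 in LPS Fth1-high cells. In bulk RNA fewer cells of a type and less RNA per cell cannot be told apart.

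**Figure D1:**
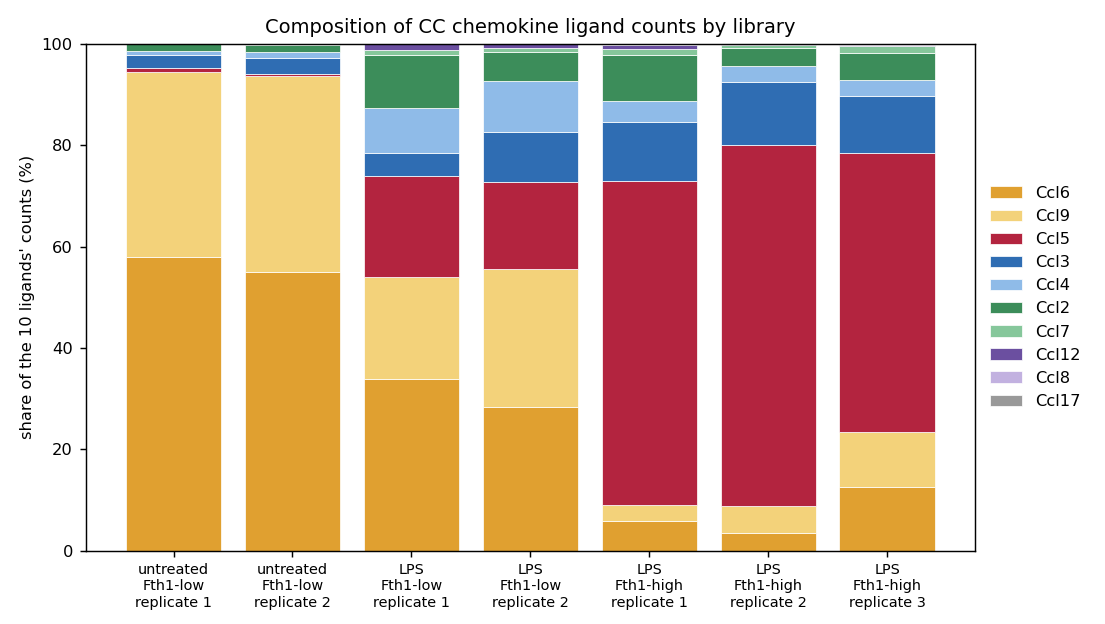
Share of the counts on the 10 CC ligand genes taken by each ligand, in percent, 1 bar per library, grouped by untreated Fth1-low, LPS Fth1-low and LPS Fth1-high. Counts are not scaled by exon length. Ccl6 with Ccl9 goes from 94.5% and 93.6% of the bar in untreated libraries to 8.74% to 23.3% in LPS Fth1-high libraries, where Ccl5 takes 55.1% to 71.4%.

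The Ccr2 ligands Ccl2, Ccl7 and Ccl12 were all higher in LPS Fth1-low than in untreated cells, and none was called between the 2 gates after LPS. Ccl2, the main monocyte attractant, was 28.7 and 22.9 CPM in untreated, 176 and 103 in LPS Fth1-low, and 116, 81.2 and 106.5 in LPS Fth1-high libraries. Both LPS groups lay above every untreated library and overlapped each other. Ccl2 rose 5.22-fold in LPS Fth1-low cells (2.38 ± 0.31, adjusted p = 0.0026) and 3.91-fold in LPS Fth1-high cells (1.97 ± 0.29, adjusted p = 9.2e-04), and the gates differed by -0.42 ± 0.27 (adjusted p = 0.43). Ccl2 overlaps the gene model Gm17268 on the opposite strand, and which strand was counted is not given in the sources used here.

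Ccl7, which is encoded next to Ccl2 and binds the same receptor among others, was scarce in untreated cells, with 21 and 12 counts (0.875 and 1.12 CPM). It was 15.1 and 13.9 CPM in LPS Fth1-low, from 9 and 271 counts, and 15.4, 11.5 and 25.0 CPM in LPS Fth1-high libraries. The LPS groups overlapped, and both were above untreated: 14.5-fold for LPS Fth1-low (3.86 ± 0.46, adjusted p = 0.0015) and 17.6-fold for LPS Fth1-high (4.14 ± 0.43, adjusted p = 1.2e-04). The gates differed by 0.28 ± 0.37, which was not called (adjusted p = 0.73). It was -0.10 without LPS Fth1-high replicate 3.

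Ccl12, a mouse Ccr2 ligand, had 1 count in each untreated library, 12 and 274 in LPS Fth1-low and 137, 112 and 209 in LPS Fth1-high. It passed the low-count filter only through the LPS libraries, so a difference from untreated cells followed from that. The ratio of pooled CPM to untreated was 248 (95% counting interval 68.0 to 2057) for LPS Fth1-low and 117 (32.2 to 969) for LPS Fth1-high cells. The gates did not overlap, at 20.1 and 14.1 CPM in Fth1-low against 9.09, 4.55 and 7.39 in Fth1-high, but at -1.22 ± 0.40 the gate difference missed the threshold (adjusted p = 0.11, and 0.056 to 0.29 over 16 alternatives).

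Ccl8, which in mice acts on Ccr8 and is made by tissue macrophages, had 2 and 0 counts in untreated, 0 and 3 in LPS Fth1-low, and 33, 41 and 54 in LPS Fth1-high libraries. It was the 1 tested ligand that passed the filter through LPS Fth1-high alone. In those libraries it was 2.19, 1.67 and 1.91 CPM, above all 4 others, and 32.7 times the untreated level (8.87 to 273 by counting). The ratio to LPS Fth1-low was 12.6 (4.21 to 61.8 by counting), yet the fit gave 3.66 ± 1.07 with an adjusted p = 0.072, not called. The value of 3 counts in LPS Fth1-low replicate 1 is 5.02 CPM, so Ccl8 at the Fth1-high level was not detectable in that library. A difference from untreated cells followed from the filter, as for Ccl12. The filter favoured a higher level than in LPS Fth1-low cells in the same way, so the gate ratio and fit are not separate support. The fitted difference of LPS Fth1-high from untreated, 4.99 ± 0.98, became 7.98 without untreated replicate 1, which held both untreated counts.

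**Figure D2:**
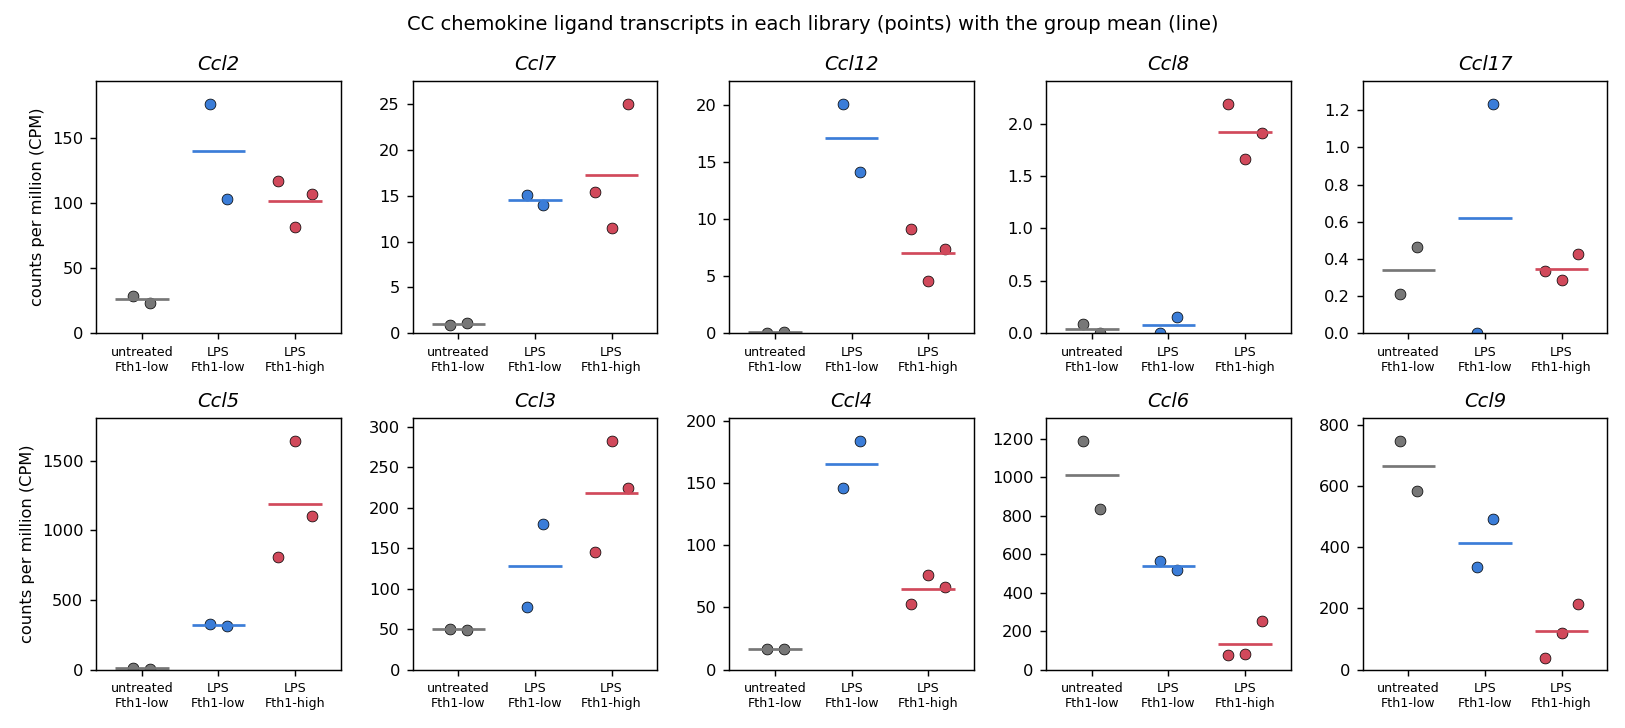
Level of each CC ligand in CPM, 1 panel per ligand with its own axis from 0, 1 point per library and the group mean as a line, for untreated Fth1-low, LPS Fth1-low and LPS Fth1-high cells. Ccl5 climbs from 5.87 to 15.2 CPM to 812 to 1643 CPM while Ccl6 and Ccl9 descend, and Ccl4 is highest in the 2 LPS Fth1-low libraries.

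Among the other inflammatory ligands Ccl5 had the widest range between libraries in fold. Ccl5, also called RANTES, draws T cells and monocytes and is made by macrophages as well as by T cells and NK cells. Its level was 15.2 and 5.87 CPM in untreated, 331.5 and 312 in LPS Fth1-low, and 812, 1643 and 1106 in LPS Fth1-high libraries, with no overlap between any 2 groups. LPS Fth1-low cells exceeded untreated cells 29.9-fold (4.90 ± 0.51, adjusted p = 6.8e-04) and LPS Fth1-high cells 111-fold (6.79 ± 0.54, adjusted p = 2.9e-05). Without untreated replicate 1 these became 5.76 and 7.66 on the log2 scale. Between the gates after LPS, Ccl5 was 3.69-fold higher on the Fth1-high side (1.89 ± 0.42, adjusted p = 0.024). Leaving out either library of LPS Fth1-low ended this call (adjusted p = 0.13 for replicate 1 and 0.12 for replicate 2), as did leaving out replicate 2 (0.053) or 3 (0.052) of LPS Fth1-high, with differences of 1.56 to 1.93. The 13 T and NK cell markers summed to 66.7 and 32.9 CPM in untreated, 60.3 and 33.8 in LPS Fth1-low and 19.9, 7.19 and 19.0 in LPS Fth1-high libraries. Between the gates edgeR called 0 of these markers, with 5 at an unadjusted p below 0.05, all lower in Fth1-high cells, and DESeq2 called 0 and voom 1. By edgeR 3 were lower in LPS Fth1-high than in untreated cells. Over all tested genes edgeR called 8.25% between the gates, and 11.9% lower in LPS Fth1-high than in untreated cells. The part of T and NK cells in the Ccl5 values was not tested.

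Ccl3 and Ccl4, neighbouring genes for the ligands MIP-1alpha and MIP-1beta, differed from each other between the gates. Ccl4 was 16.4 CPM in both untreated libraries, 146 and 184 in LPS Fth1-low, and 53.0, 75.8 and 66.4 in LPS Fth1-high, and no groups overlapped. It rose 10.2-fold in LPS Fth1-low cells (3.34 ± 0.26, adjusted p = 1.5e-04) and 3.97-fold in LPS Fth1-high cells (1.99 ± 0.23, adjusted p = 2.5e-04). Between the gates it was lower in Fth1-high (-1.36 ± 0.21, adjusted p = 0.0047), and each of its 3 differences kept its call in all 16 alternatives.

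Ccl3 was 50.4 and 49.5 CPM in untreated, 77.0 and 180 in LPS Fth1-low, and 146, 283 and 225 in LPS Fth1-high libraries. The LPS groups overlapped, and the gate difference was not called (0.70 ± 0.37, adjusted p = 0.32). It was 0.26 without LPS Fth1-low replicate 1 (adjusted p = 0.75) and 1.51 without replicate 2 of that group (adjusted p = 0.081). Ccl3 rose 4.37-fold from untreated to LPS Fth1-high (2.13 ± 0.38, adjusted p = 0.0032). The difference of LPS Fth1-low from untreated was 1.43 ± 0.40 (adjusted p = 0.11), and it was called without LPS Fth1-low replicate 1 (1.88, adjusted p = 0.043), by DESeq2 (0.0036) and in a fit of those 2 groups alone (0.026), but was 0.60 without LPS Fth1-low replicate 2 (adjusted p = 0.46). The count ratio of Ccl3 to Ccl4 within a library, which needs no scaling between libraries, was 3.07 and 3.02 in untreated, 0.529 and 0.978 in LPS Fth1-low, and 2.75, 3.74 and 3.39 in LPS Fth1-high. LPS Fth1-low lay below both other groups, whose ranges overlapped. These ratios were not tested: with 2 against 3 libraries a two-sided exact permutation test cannot go below p = 0.2.

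**Figure D3:**
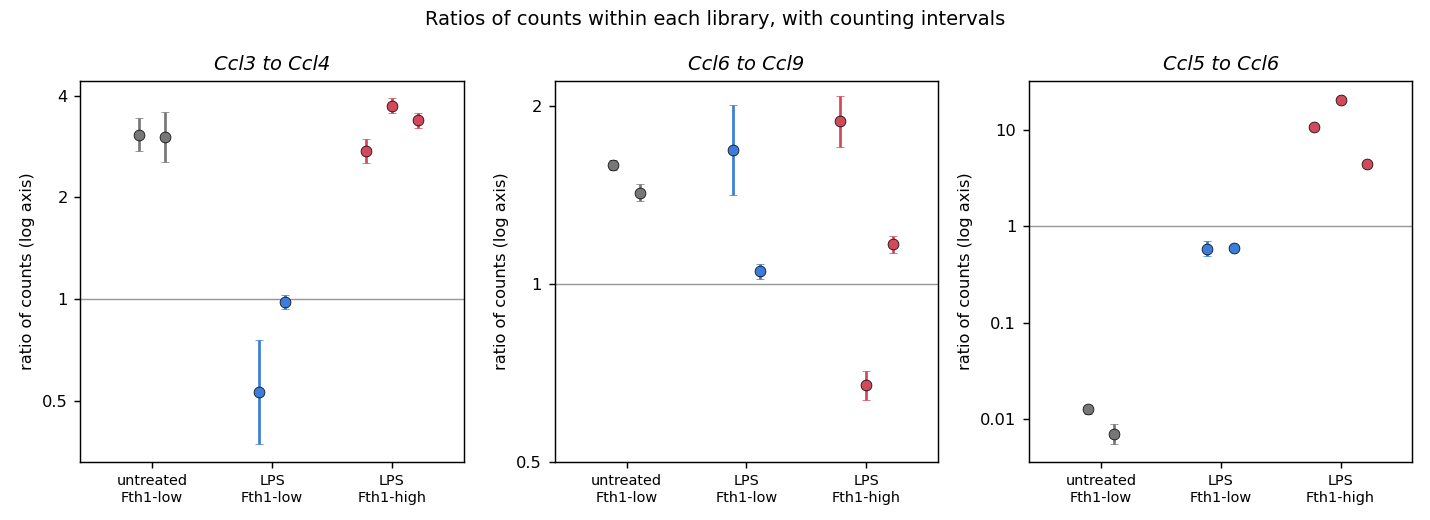
Ratios of ligand counts within each library on a log axis, 1 point per library, for Ccl3 to Ccl4, Ccl6 to Ccl9 and Ccl5 to Ccl6, with 95% counting intervals. Ccl3 to Ccl4 is 0.529 and 0.978 in LPS Fth1-low and 2.75 to 3.74 in the other 5 libraries, while Ccl5 to Ccl6 runs from 0.00704 to 20.3.

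Ccl6 and Ccl9 are Ccr1 ligands that mouse myeloid cells express without stimulation, and they were the ligands called lower in LPS Fth1-high than in untreated cells. Ccl6 was 1189 and 834 CPM in untreated, 564 and 517 in LPS Fth1-low, and 75.1, 81.0 and 252 in LPS Fth1-high libraries, with no overlap. It fell 7.43-fold from untreated to LPS Fth1-high (-2.89 ± 0.50, adjusted p = 0.0031) and the difference of LPS Fth1-low from untreated was not called (-0.91 ± 0.55, adjusted p = 0.56). Between the gates it was lower in Fth1-high cells (-1.99 ± 0.49, adjusted p = 0.041). This last call was lost on leaving out untreated replicate 1 (adjusted p = 0.061) or 2 (0.059), LPS Fth1-low replicate 1 (0.16) or 2 (0.12), or LPS Fth1-high replicate 1 (0.068) or 2 (0.094). It was also lost with no low-count filter (adjusted p = 0.12), in a fit of the 2 LPS groups alone (0.059) and with voom quality weights (0.061). Without LPS Fth1-high replicate 3, the highest of its group, the difference was -2.79 (adjusted p = 0.0012), and that from untreated -3.69. Ccl6 overlaps E230016K23Rik on the opposite strand, named after its values were seen, which had 379 and 108 counts in untreated, 0 and 59 in LPS Fth1-low and 2, 1 and 23 in LPS Fth1-high libraries. Its counts were far below those of Ccl6, and its part in the Ccl6 result was not tested.

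Ccl9 was 748 and 584 CPM in untreated, 335 and 493 in LPS Fth1-low, and 39.9, 120 and 216 in LPS Fth1-high libraries, again with no overlap. It fell 5.31-fold from untreated to LPS Fth1-high (-2.41 ± 0.58, adjusted p = 0.019), a call lost without untreated replicate 1 (adjusted p = 0.093) or 2 (0.059) or LPS Fth1-high replicate 2 (0.084), or with no low-count filter (0.093). Without LPS Fth1-high replicate 3 the difference was -3.05. The gates differed by -1.73 ± 0.58, which missed the threshold (adjusted p = 0.13). It was -2.38 (adjusted p = 0.028) without LPS Fth1-high replicate 3. The difference of LPS Fth1-low from untreated was -0.68 ± 0.64 (adjusted p = 0.75). Ccl6 to Ccl9 count ratios were 1.59 and 1.43, 1.69 and 1.05, and 1.88, 0.674 and 1.17 in the groups in the same order, which overlapped.

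Ccl17, a Ccr4 ligand made mainly by dendritic cells, had 5 and 5 counts in untreated, 0 and 24 in LPS Fth1-low, and 5, 7 and 12 in LPS Fth1-high libraries. It was not tested, and in a fit without the filter its differences were -1.49 ± 1.02 between the gates, 1.58 ± 1.17 for LPS Fth1-low and 0.10 ± 1.01 for LPS Fth1-high against untreated (adjusted p = 0.55, 0.77 and 0.97). The 10 dendritic cell markers summed to 138 and 146 CPM in untreated, 110.5 and 92.6 in LPS Fth1-low and 81.9 to 95.6 in LPS Fth1-high libraries, but the members did not move together. Between the gates 3 were called lower in Fth1-high cells (Flt3, Cd209a and Clec10a) and 1 higher (Ly75, which made up 53.1 to 81.0 CPM of the sum in those libraries). Over all tested genes 4.57% were called lower and 3.68% higher. Flt3 was 33.9 and 38.1 CPM in untreated, 13.4 and 38.9 in LPS Fth1-low and 0.488 to 0.813 in LPS Fth1-high libraries. The part of dendritic cells in the Ccl17 values was not tested.

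Over the 9 ligands with a test, Fth1-high cells held more Ccl5 and less Ccl4 and Ccl6 than Fth1-low cells after LPS, where 8.25% of all tested genes were called (3.68% higher, 4.57% lower). In LPS Fth1-low against untreated cells 5 were higher and 0 lower (Ccl2, Ccl4, Ccl5, Ccl7 and Ccl12), where 3.62% of genes were called (2.99% higher, 0.629% lower). In LPS Fth1-high against untreated cells 7 were higher and 2 lower, where 24.3% of genes were called (12.4% higher, 11.9% lower). The last 2 comparisons share the untreated libraries. The median difference of the 9 was -0.42, 2.38 and 2.13 in this order, against 0.04, -0.05 and 0.03 over all tested genes. Libraries of the 2 groups did not overlap for 6 of the 9 between the gates (41.3% of all tested genes), 8 in LPS Fth1-low against untreated (39.5%) and 9 in LPS Fth1-high against untreated (58.1%). Ccl8 and Ccl12 enter these counts although the filter admitted them through LPS libraries. Without LPS Fth1-low replicate 1, Ccl4 was the 1 ligand called between the gates, and LPS Fth1-low against untreated gave 6.

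**Figure D4:**
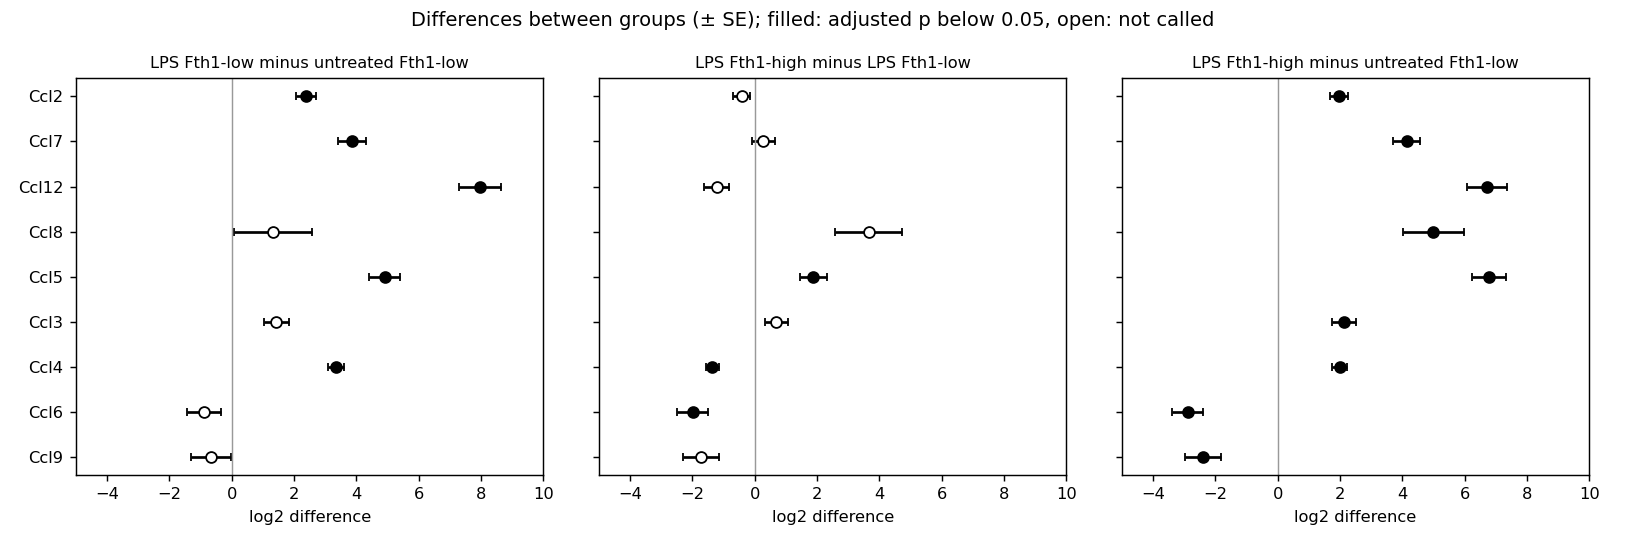
Log2 differences of the 9 tested CC ligands in the 3 comparisons, with SE bars and filled points where the adjusted p was below 0.05. Between the LPS gates Ccl5 lies at 1.89 and Ccl4 and Ccl6 at -1.36 and -1.99, and against untreated cells Ccl6 and Ccl9 lie below 0 while the other 7 lie above it.

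Levels of different ligands were compared as CPM per kb of exon length. In untreated cells Ccl6 (mean 563) stood above Ccl9 (219), Ccl3 (65.2), Ccl4 (24.9) and Ccl2 (22.7), and only Ccl4 with Ccl2 and Ccl12 with Ccl8 overlapped as neighbours in this order. In LPS Fth1-low cells Ccl5 (335), Ccl6 (301) and Ccl4 (250) led, followed by Ccl3 (168), Ccl9 (136) and Ccl2 (122.5), with overlap between each neighbour from Ccl4 to Ccl2. In LPS Fth1-high cells Ccl5 (1236) and Ccl3 (284.5) stood clear of the rest, and Ccl4 (98.6), Ccl2, Ccl6, Ccl9, Ccl7 and Ccl12 (13.1) overlapped in turn. Ccl8 was above Ccl17 in this group, where Ccl17 was last. These overlaps are of group ranges, while the ligands were measured in the same libraries. Ccl6 was above Ccl9 and Ccl7 above Ccl12 in all 3 LPS Fth1-high libraries, and Ccl4 above Ccl3 in both LPS Fth1-low libraries. The other overlapping neighbours did not keep their order in every library.

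Receptors for these ligands moved as well. Ccr2, the receptor for Ccl2, Ccl7 and Ccl12, was 1390 and 1252 CPM in untreated, 894 and 1545 in LPS Fth1-low, and 360.5, 148 and 170 in LPS Fth1-high libraries. LPS Fth1-high lay below both other groups, which overlapped. Ccr2 was lower in LPS Fth1-high than in LPS Fth1-low (-2.44 ± 0.40, adjusted p = 0.0057) and untreated cells (-2.55 ± 0.40, adjusted p = 0.0014). Ccr1, which binds Ccl3, Ccl5, Ccl6 and Ccl9, was 29.9 and 13.6 CPM in untreated, 167 and 253 in LPS Fth1-low, and 136, 226 and 178 in LPS Fth1-high libraries. It rose in both LPS groups (3.28 ± 0.42, adjusted p = 0.0022, and 3.04 ± 0.39, adjusted p = 4.9e-04), and without untreated replicate 1 these became 3.96 and 3.72. Ccr4, Ccr6, Ccr7 and Ccr9 were tested and not called in any of the 3 comparisons.

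**Figure D5:**
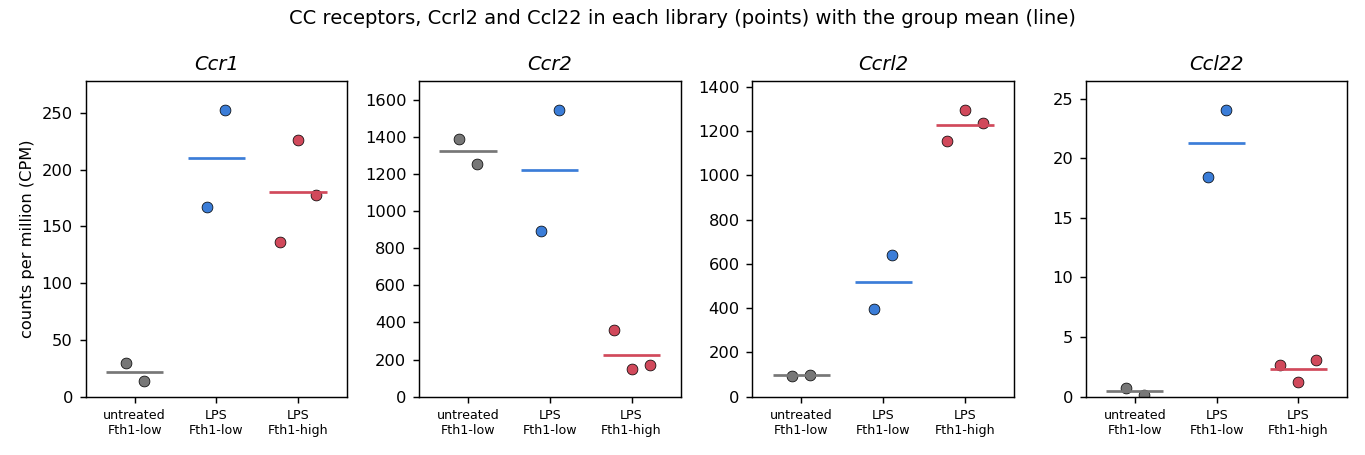
Level of Ccr1, Ccr2, Ccrl2 and Ccl22 in CPM, 1 panel per gene with its own axis from 0, 1 point per library and the group mean as a line, in the 3 groups. Ccr2 drops to 148 to 360.5 CPM in LPS Fth1-high libraries, and Ccr1 sits above the untreated libraries in all 5 LPS libraries.

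Ccrl2, an atypical receptor that binds chemerin and does not signal to migration, was 95.0 and 99.1 CPM in untreated, 397 and 639 in LPS Fth1-low, and 1155, 1297 and 1235 in LPS Fth1-high libraries. No groups overlapped, and it was called higher in each comparison (1.24 ± 0.25 between the gates, adjusted p = 0.015; 2.43 and 3.66 against untreated, adjusted p = 0.0011 and 2.3e-05). The gate call was lost without LPS Fth1-high replicate 2 (adjusted p = 0.053). Of 11 other CC ligands 4 were tested, and Ccl22, a Ccr4 ligand like Ccl17, was the 1 called. Its counts were 18 and 2 in untreated, 11 and 468 in LPS Fth1-low, and 40, 30 and 86 in LPS Fth1-high libraries. Only 1 of the 2 untreated libraries reached the cut of the low-count filter, against all LPS libraries. Ccl22 was thus admitted through the LPS libraries, which favours a difference from untreated cells. Ccl22 was higher in LPS Fth1-low than in untreated (5.38 ± 0.69, adjusted p = 0.0022, and 6.81 without untreated replicate 1) and lower in LPS Fth1-high than in LPS Fth1-low cells (-3.24 ± 0.52, adjusted p = 0.0055). Leaving out LPS Fth1-low replicate 2 ended this gate call (adjusted p = 0.074).

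Among 23 transcription factors and feedback genes of LPS-induced chemokine transcription, all tested, the 4 called between the gates were lower in Fth1-high cells: Irf1, Irf5, Rel and Nfkb1. Over all tested genes 4.57% were called lower and 3.68% higher there. Irf1, an interferon-induced activator, was 241 and 259 CPM in untreated, 827 and 865 in LPS Fth1-low, and 481, 397 and 337 in LPS Fth1-high libraries. It differed by -1.06 ± 0.21 between the gates (adjusted p = 0.014) and by 1.76 ± 0.24 for LPS Fth1-low against untreated (adjusted p = 0.0034). Its gate call was lost without LPS Fth1-high replicate 2 (adjusted p = 0.056) or 3 (0.072), and its LPS Fth1-low call without untreated replicate 1 (0.056). Irf5, Rel and Nfkb1 also lost their gate calls without LPS Fth1-high replicate 2 (adjusted p = 0.086, 0.065 and 0.15) or 3 (0.10, 0.058 and 0.13). Rel lost it too without LPS Fth1-low replicate 1 (adjusted p = 0.074) or 2 (0.073), and Nfkb1 without any library other than LPS Fth1-low replicate 1 (0.081 to 0.16). Against untreated cells, the 4 called in LPS Fth1-low were higher: Irf1 and the NF-kappaB inhibitors Tnfaip3, Nfkbia and Nfkbie. Of all tested genes 2.99% were called higher and 0.629% lower in that comparison. Tnfaip3 and Nfkbia lost the call without untreated replicate 1 (adjusted p = 0.17 and 0.24), untreated replicate 2 (0.10 and 0.087) or LPS Fth1-low replicate 2 (0.051 and 0.085), and Nfkbie without any 1 of the 7 libraries (0.050 to 0.34). In LPS Fth1-high against untreated 4 were higher and 5 lower, where 12.4% of all tested genes were called higher and 11.9% lower. Tnfaip3 rose there (1.99 ± 0.26, adjusted p = 4.6e-04), and Irf5 (-1.38 ± 0.19, adjusted p = 6.8e-04) and Bcl6 (-1.40 ± 0.24, adjusted p = 0.0024) fell. The median of the 23 was -0.33 between the gates, 0.21 for LPS Fth1-low and -0.08 for LPS Fth1-high against untreated.

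Markers of other cell types moved with some of these groups, and their part in the ligand results was not tested. The 10 interstitial macrophage markers summed to 73.1 and 75.8 CPM in untreated, 318 and 677 in LPS Fth1-low and 1679, 2112 and 2273 in LPS Fth1-high libraries. The complement genes C1qa, C1qb and C1qc and the scavenger receptor gene Stab1 carried this rise, and other members went the opposite way. Of the 10, 4 were higher and 1 lower (Lyve1) in Fth1-high cells between the gates, and against untreated 4 were higher and 3 lower (Lyve1, Cd163 and Mrc1). Over all tested genes 3.68% were called higher and 4.57% lower between the gates, and 12.4% and 11.9% in Fth1-high cells against untreated. Alveolar macrophage markers summed to 490.5 to 5925 CPM, of which Chil3 gave 471 to 5805, while Siglecf was 0.732 to 5.02 CPM. Neutrophil markers summed to 374.5 to 698 CPM, of which Csf3r gave 272 to 497, with Ly6g at 0 in 3 libraries. Of the 9 tested neutrophil markers, 2 were called between the gates, both lower in Fth1-high cells. The 9 epithelial, endothelial and stromal markers summed to 806 CPM in untreated replicate 1 and 33.0 to 162 CPM in the other libraries, with 0 called in each comparison. Among them Sftpc was 1.40 and 494 CPM in the untreated libraries. The 6 B cell markers summed to 6.42 to 87.1 CPM.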

How the data were processed

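Polyadenylated RNA (25 ng) of sorted mouse lung cells was sequenced in 7 libraries with a stranded kit, 15 PCR cycles and 58 bp paired reads, per the labels' protocols. The deposited values are whole-number counts per gene and library. The submitters' processing notes name DRAGEN, DESeq2 and mm10; the sources used here give no version, annotation, strand setting or filter.

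Groups follow the sample labels. The model was fitted in edgeR 4.0.16 (R 4.3.3): filterByExpr (minimum count 10; 13665 of 26130 genes), TMM scaling and 1 robust quasi-likelihood model of 3 groups over all 7 libraries (residual df 4), with 3 two-sided differences. SE is the log2 difference over the square root of F. Reads shared between the similar Ccl genes are uncertain. Alternatives used DESeq2 1.42.0, limma 3.58.1, other scalings, no filter, only the groups compared, ribosomal RNA left out, the replicate block and each library left out. The script was tested on simulated data. Positions and exon lengths are from GENCODE vM21.

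The members and lists were chosen with earlier results of these data known. All 10 members are named; of other lists, up to 4 called genes by smallest adjusted p, or the 2 most abundant, and only some of these are described; some are not reported here.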

Additional observations from a re-analysis of the deposited data

How the results depend on the processing

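Of 17 called ligand differences, 13 kept their call in all 16 alternatives, and Ccl5 and Ccl6 between the gates, Ccl7 in LPS Fth1-low and Ccl9 in LPS Fth1-high against untreated lost it in some. Ccl7 lost it with voom quality weights (adjusted p = 0.098). Of 10 uncalled, 3 were called in some alternative. These were Ccl3 in LPS Fth1-low against untreated in 4, Ccl9 between the gates in 2 and Ccl8 between the gates with voom (adjusted p = 0.042). The low-count filter, also used with voom, favoured that Ccl8 difference. Reversed, none of them called, were Ccl7 between the gates with the replicate block (-0.12) and without LPS Fth1-high replicate 3 (-0.096, and up to 0.48 without its replicate 2), Ccl8 in LPS Fth1-low against untreated without LPS Fth1-low replicate 2 (-3.08, and up to 4.33 without untreated replicate 1), Ccr1 between the gates without LPS Fth1-low replicate 2 (0.11, down to -0.51 without its replicate 1) and Ccr2 in LPS Fth1-low against untreated without LPS Fth1-low replicate 1 (0.26, down to -0.58 without its replicate 2); the cause was not tested. With each library left out, ligands called ranged from 1 to 3 between the gates, 5 to 6 in LPS Fth1-low and 8 to 9 in LPS Fth1-high against untreated, all genes called from 658 to 1061, 197 to 531 and 1918 to 4143, and the other pathway genes from 2 to 7, 5 to 8 and 11 to 20. The DESeq2 Wald test called 11 pathway genes between the gates (7 in the model reported), and 14 pathway genes (9) and 818 genes (495) in LPS Fth1-low against untreated, where voom with quality weights called 315. Where a group kept 1 library it is assumed to vary like the others.

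The replicate numbers are not shown to pair the libraries: deviations of same-numbered libraries correlated at -0.04 to 0.29, and untreated replicate 1 correlated best with LPS Fth1-high replicate 3 (0.20). With the replicate block 4, 6 and 9 ligands and 1328, 741 and 3119 genes were called in the 3 comparisons. Depth limits LPS Fth1-low replicate 1, where 3 counts equal 5.02 CPM, above the level of Ccl8 and Ccl17 in every library.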

Other observations

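Among 8 genes that act on chemokine mRNA decay, 0 were called between the gates after LPS by edgeR's quasi-likelihood test, with 1 at an unadjusted p below 0.05, and DESeq2 called 1 and voom 0. With 8.25% of all tested genes called there, 0 among 8 is near that share. Zfp36l1, which binds AU-rich elements and speeds decay, was 3.26-fold higher in LPS Fth1-low (adjusted p = 0.01) and 3.32-fold higher in LPS Fth1-high than in untreated cells (adjusted p = 0.0013). Its relative Zfp36l2 was lower in LPS Fth1-high than in untreated cells (-1.56 ± 0.25, adjusted p = 0.0018), and Zc3h12a, which encodes the RNase Regnase-1, was higher there (0.79 ± 0.19, adjusted p = 0.013). The Zc3h12a call was lost without untreated replicate 1 (adjusted p = 0.14) or 2 (0.050) or LPS Fth1-high replicate 2 (0.060) or 3 (0.056). The Zfp36l1 call in LPS Fth1-low was lost without untreated replicate 1 (adjusted p = 0.077) or LPS Fth1-low replicate 1 (0.052).

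Several CC ligands of other tissues were at or near 0. Ccl11, Ccl19 and Ccl26 had 0 counts in all 7 libraries, which allows up to 5.02 CPM in LPS Fth1-low replicate 1 and 0.106 to 0.280 CPM in the others.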
